A study of Gallus gallus with 8 samples.

Results

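The genes described here were scarce in healthy chicken liver and were read in every ascitic pool at a level above every healthy pool. They were chosen by their values: among the 4218 of 14634 genes whose highest healthy pool was at most 6.5 on the deposited log2 scale, the 60 genes with the largest gap between the lowest ascitic and the highest healthy pool were taken. A deposited value of 6.5 stands for 59.4 normalized reads, that is, reads divided by the size factor of the pool, and the lowest deposited value, 4.11, stands for 0 reads. The ascitic against healthy difference of these genes is therefore a description of the choice, and no test of it is given.

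Polyadenylated RNA was sequenced from livers of ascitic and healthy meat-type chickens. RNA of 32 birds was combined into 8 pools of 4 birds, with 2 female and 2 male pools in each disease state. All birds, healthy ones included, went from a house temperature of 24 °C on day 21 to 18 °C from day 22 until day 48, with high-energy feed, and a label entry of day 42 does not say whether it is the age at sampling. The labels give no breed, and the replicate is the pool, so the spread between birds within a pool was not measured. Ascites was observed in the birds and not assigned to them.

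Ascites of meat-type chickens, also called water belly, is a collection of fluid in the abdomen that follows pulmonary hypertension and failure of the right side of the heart, and blood then backs up in the liver. Most messenger RNA of the liver comes from hepatocytes and codes for secreted plasma proteins and metabolic enzymes. Transcripts at a few reads in bulk liver can come from hepatocytes that transcribe a gene weakly or from rarer cells, such as blood, vessel, bile duct and stellate cells. In a pool of whole liver, fewer cells of a type and less RNA per cell cannot be told apart.

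Genes carry only Ensembl IDs in the files, which give no names beside them, and a reference table of 25635 genes matched 0 of these IDs. The 60 genes are therefore given by their rank in the gap, from 1 for the largest to 60, and IDs are printed only for the first 2. Marker genes of liver cells could not be looked up, so neither the tissue label nor a cell type behind the 60 genes was checked. Reads depend on the length of a transcript, so levels are compared between pools and not between genes.

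Total reads per pool ran from 26459951 to 33193179, and the size factors from 0.484 to 0.946 in healthy and from 1.09 to 1.56 in ascitic pools. Healthy female 2 lay apart, with a size factor of 0.484 and Spearman correlations across genes of 0.851 to 0.925 with the other pools. The pool labelled healthy male 1 went against its sex label in part. It held 5585 normalized reads of 11 genes that had at least 50 in every female pool and at most 5 in each of the other 3 male pools, where they summed to 3.17, 6.43 and 3.85. By the rule none of the 60 genes could be among those 11, which stood higher in healthy females than in ascitic males. Their absence therefore does not show that the 60 genes are free of whatever set this pool against its label, which was not tested. In the female pools the 11 genes summed to 14030 and 14499 normalized reads in healthy and 6493 and 8969 in ascitic birds. Summaries that rest on healthy female 2 and healthy male 1 are given with and without them where pools remain to give a value.

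Most of the 60 genes were scarce rather than silent in healthy liver. Only 5 had no read in any healthy pool, 14 had none in 1 to 3 of the 4 healthy pools, and 41 were read in all of them. In the 2 healthy pools left without healthy female 2 and healthy male 1, 8 genes had no read, 2 were read in 1 pool and 50 in both. The mean over the healthy pools had a median of 9.08 normalized reads over the 60 genes and reached 46.4, against 8.79 and 48.1 without those pools. In 20 genes the highest healthy pool held at most 10 normalized reads, and in another 20 it held over 30. Ascitic means ran from 10.7 to 583 normalized reads with a median of 128, and 35 genes reached a mean of 100 or more. A switch from off to on thus describes only some of the 60 genes, and most had a measured level in healthy liver.

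The rule drew a line through a continuous range. All 60 members, by choice, lay above every healthy pool in every ascitic pool, as did another 586 of the 4218 scarce genes (15.3% with the 60 included), and 10.6% of the 13766 genes tested in the whole table. The gaps ran from 0.80 to 2.27 with a median of 1.06 log2 units. The members of rank 59 and 60 had gaps of 0.811 and 0.801, and the genes just outside had gaps of 0.800 and 0.798. The members nearest the healthy limit had highest healthy pools of 58.2 and 57.2 normalized reads. Above that limit lay 64 genes with a gap at least as large, the nearest at 61.8 normalized reads in its highest healthy pool.

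**Figure D1:**
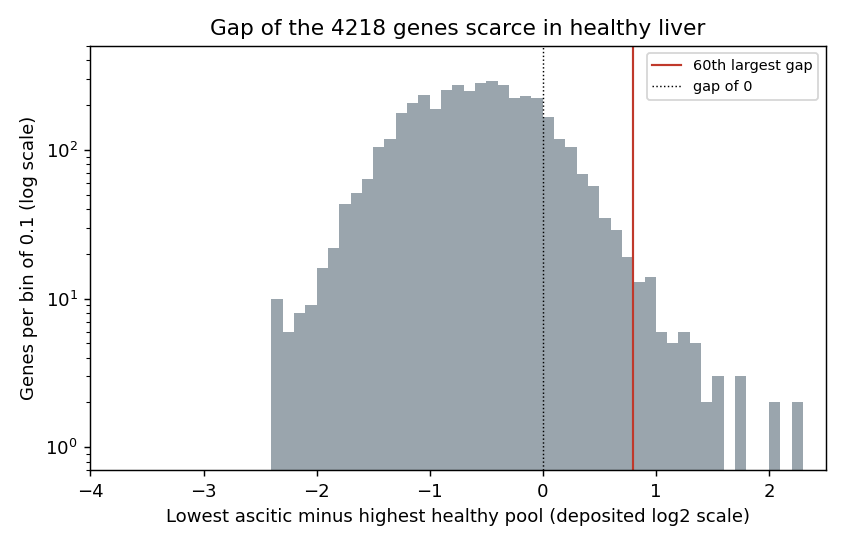
Histogram of the gap, the lowest ascitic minus the highest healthy pool on the deposited log2 scale, for the 4218 genes whose highest healthy pool was at most 6.5; the vertical axis counts genes on a log scale. The red line marks the 60th largest gap, 0.801, and lies on the right flank of the distribution, with filled bins on both sides of it.

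The largest gap was that of ENSGALG00000000274, a rise by choice of the gene. It held 1.17 and 4.14 normalized reads in the healthy females, 4.31 and 6.34 in the healthy males, 119 and 220.3 in the ascitic females, and 310.4 and 147 in the ascitic males. Those healthy values rest on 13 reads over 4 pools. Its means were 3.99 ± 2.13 and 199 ± 85.6 (SD, n = 4 each), and the ratio of the means was 49.9.

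ENSGALG00000026557 came next, with exactly 2 reads in each healthy pool, or 2.33, 4.14, 2.15 and 2.11 normalized reads. Counts this small do not show whether its healthy level was even. The ascitic females held 98.5 and 106 normalized reads and the ascitic males 333 and 339.7. The pools of each sex thus lay close together, with a step between the sexes that is described further on. Its means were 2.68 ± 0.972 and 219 ± 135 (SD, n = 4 each), with a ratio of 81.7.

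The members of rank 3, 4 and 7 differed from these by a more even level over all ascitic pools. At rank 3 healthy pools held 4.14 to 11.8 normalized reads and ascitic pools 130.1 to 224. Rank 4 had 11.7 to 36.6 and 237 to 312, and rank 7 had 19.0 to 56.0 and 251 to 309. In these genes neither ascitic sex stood above the other without overlap.

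Rank 5 varied widely among healthy pools. It held 2.33 and 39.3 normalized reads in healthy females, 1.08 and 14.8 in healthy males, 565 and 206 in ascitic females, and 629 and 736 in ascitic males. The highest healthy value belongs to healthy female 2, where it rests on 19 reads. The ratio of its means was 37.2, and 62.3 without healthy female 2 and healthy male 1. A single read of rank 6 was found in all healthy pools together, in the pool labelled healthy male 1, against 43.8 and 188 normalized reads in ascitic females and 277 and 290.2 in ascitic males. The ratio of read rates was 632.5, with an exact 95% interval from counting error alone of 113 to 25007.

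Among the members of rank 8, 9 and 10 the healthy level was again measurable. Rank 9 was the steadiest of these in healthy liver, at 26.4 to 31.0 normalized reads, and it held 210.0 and 145 in ascitic females and 465 and 307 in ascitic males. At rank 8 there were 6, 0, 4 and 2 reads in the healthy pools and 65.5 to 126 normalized reads in the ascitic pools, and at rank 10 normalized reads ran from 5.83 to 43.3 and from 181 to 246.

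**Figure D2:**
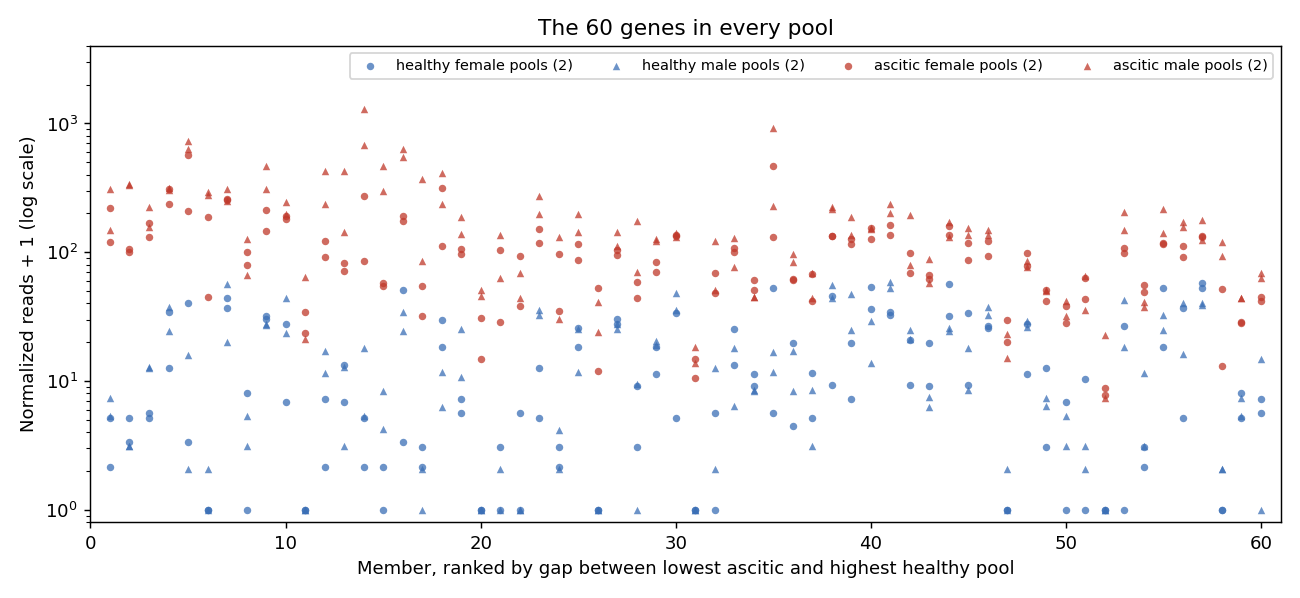
Normalized reads plus 1 (log scale) of each of the 60 genes in each of the 8 pools, with genes ordered by gap; blue marks are healthy and red marks ascitic pools, circles females and triangles males. The red marks lie above the blue ones for every gene by choice, 5 genes lie at 0 reads in all healthy pools, and the ascitic values spread widely for some genes, as at rank 14, and little for others, as at rank 30.

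The 5 genes with no healthy read had few reads in ascitic liver as well. Rank 11 had 33.5 and 22.6 normalized reads in ascitic females and 20.2 and 62.9 in ascitic males. The gene of rank 20 held 30.1 and 13.9 in the females and 45.0 and 50.1 in the males, and that of rank 26 held 10.9, 52.0, 40.4 and 23.1 in the same order. The fewest were found at rank 31, with 9.58 to 17.5 normalized reads, and at rank 52, with 6.43 to 21.8. Set against 3 reads over the 4 healthy pools together (0.933 normalized reads), the ascitic means of these genes were at least 37.3-fold, 37.3-fold, 33.9-fold, 14.4-fold and 11.5-fold higher, in order of rank. The bound covers counting error in the healthy reads only and takes the ascitic mean as exact. It describes the difference that chose the genes. At rank 52 ascitic male 2 held 21.8 normalized reads, against 6.84 and 7.81 in the ascitic females and 6.43 in ascitic male 1.

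Another 5 genes had 1 to 3 healthy reads in all, and their ratios of read rates were poorly bounded from above. Besides the member of rank 6 they were those of rank 17, with a ratio of 159 (exact 95% interval 54.2 to 773), rank 21, with 131 (36.0 to 1083), rank 47, with 67.2 (11.8 to 2679), and rank 58, with 111 (30.4 to 917). These intervals cover counting error of the summed reads only and leave out the spread between pools. The genes were chosen for this difference, so the intervals are no test of it. In the other 50 genes the healthy level rested on 4 or more reads. Over the 55 genes with a healthy read, the ratio of the means ran from 3.04 at rank 57 to 742 at rank 6, with a median of 9.01. Without healthy female 2 and healthy male 1 the median was 8.62 over the 52 genes still read in healthy liver. With all pools and the 5 bounds included the median was 11.1.

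On the deposited scale the ascitic minus healthy difference had a median of 1.82 log2 units over the 60 genes, from 1.07 to 3.87, and this scale compresses low levels. The median over all genes was 0.01. Scaled by total reads in place of the authors' size factors, the medians were 2.12 for the 60 genes and 0.45 for all genes. Total reads gave a larger factor than the authors' in every healthy pool and a smaller one in every ascitic pool. Both medians therefore had to rise, and the 60 genes could not lose their order of ascitic above healthy pools. Without healthy female 2 and healthy male 1 the median of the 60 genes was 1.69. The same rule applied without those pools chose 43 of the 60 again, against 44 without healthy female 2 alone and 54 without healthy male 1 alone.

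As a group, the 60 genes took up a minute share of each library. They summed to 691 and 375 reads in the healthy females, 778 and 879 in the healthy males, 9443 and 6992 in the ascitic females, and 11926 and 17500 in the ascitic males. As CPM, that is, scaled to total reads, these sums were 26.1, 14.0, 25.4 and 32.2 in the healthy pools and 284, 263, 389 and 575 in the ascitic pools, in the same order. Healthy female 2 was lowest, and 15 of the 60 genes had no read there, against 9 in each of the other healthy pools. Each read in healthy female 2 counts as 2.07 normalized reads, against 1.06 to 1.17 in the other healthy pools.

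The mean of the 60 genes on the deposited scale, which compresses low levels, stepped by sex within ascitic pools. It was 5.10, 5.02, 5.11 and 5.20 in healthy female 1 and 2 and healthy male 1 and 2. In ascitic pools it was 6.87 and 6.85 in the females and 7.36 and 7.37 in the males. The standard deviation over pools was 0.07 in healthy pools, which the rule had capped, and 0.29 in ascitic pools (n = 4 each). Scaled by total reads the healthy means ran from 4.78 to 5.20. The ascitic males thus lay 0.50 log2 units above the ascitic females on average, and 0.49 when scaled by total reads. Under that scaling the ascitic means were 7.12 and 7.09 in the females and 7.38 and 7.82 in the males. The 2 male pools then no longer lay close together, and ascitic male 2 stood highest.

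**Figure D3:**
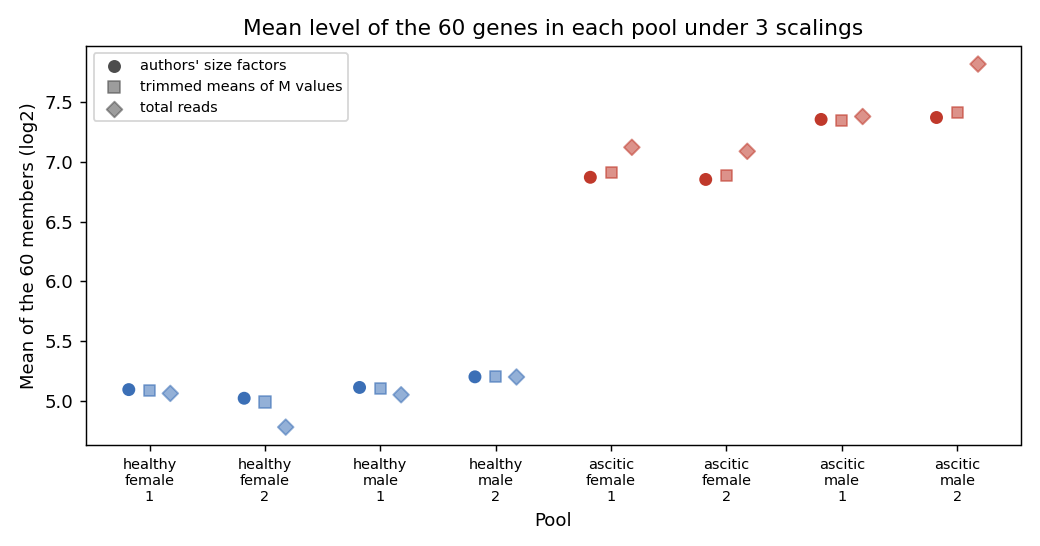
Mean log2 value of the 60 genes in each pool under the authors' size factors (circles), trimmed means of M values (squares) and total reads (diamonds), with healthy pools in blue and ascitic pools in red. Healthy pools lie between 4.78 and 5.20 and ascitic pools between 6.85 and 7.82, and both ascitic male pools lie above both ascitic female pools under each scaling.

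The rule took the lowest of the 4 ascitic pools whatever its sex, so it set no direction between the sexes, although the ascitic values themselves entered the choice. Both ascitic male pools lay above both ascitic female pools in 30 of the 60 genes (50%), and both female pools above both male pools in 2 (3.33%). Over the 13766 genes tested, these shares were 24.6% and 22.4%. The other 586 scarce genes with ascitic pools above healthy pools leaned the same way, with 37.5% and 8.87%, so the lean was not confined to the 60 genes. The genes share the same 4 ascitic libraries and are not independent of each other. Scaled by total reads the numbers were 27 and 2 of the 60, against 18.8% and 19.6% of all genes tested.

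No single gene passed the test of that difference. In limma's model of 4 group means, 59 of the 60 genes entered the fit. Between ascitic males and ascitic females 0 of them passed an adjusted p of 0.05, where the share over all genes was 0.0%. Even the 11 genes nearly absent from 3 male pools did not pass, at sums of 6493 and 8969 normalized reads in ascitic females and 6.43 and 3.85 in ascitic males. In the healthy males these genes summed to 5585 and 3.17, and that spread enters their test. Their result therefore does not measure what the test could find among the 60 genes. With 2 pools per group, a count of 0, here or in the limma test of sex over both states, does not show that the sexes are alike. At an unadjusted p under 0.05 there were 11 of the 59, all higher in males, where 2.66% of all genes were. This model estimates spread over healthy and ascitic pools, and the rule capped the healthy values on a scale that compresses low levels. The unadjusted p-values of the 59 genes, here and in the limma tests further on, are therefore not directly comparable with those of all genes. Limma-voom on the recovered reads also passed 0, with 12 at an unadjusted p under 0.05. All 12 were higher in males, where 456 of the 13766 genes were. The median difference over the 59 genes was 0.37 log2 units, with males higher in 52 of them, against 0.02 and 51.7% over all genes. Rank 52 was too scarce to be tested.

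By the ratio of means, the widest steps between the ascitic sexes belonged to the members of rank 15, 14 and 17. Rank 15 had 53.4 and 56.4 normalized reads in ascitic females and 297 and 465 in ascitic males, or 6.94 times as many on average. Its log2 difference was 2.24 with standard error 0.32 (adjusted p = 0.327 in limma). Rank 14 had 84.1 and 272 in ascitic females and 678 and 1299 in ascitic males, a difference of 2.37 with standard error 0.52 (adjusted p = 0.469 in limma). In the member of rank 17 the step rested mainly on ascitic male 2, with 54.0 and 31.2 normalized reads in the females and 84.5 and 369 in the males.

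ENSGALG00000026557 showed a step of 1.46 log2 units with standard error 0.27 (adjusted p = 0.469 in limma). It is the member of rank 2, and its ascitic male mean was 3.29 times its ascitic female mean. ENSGALG00000000274 did not separate the ascitic sexes, since its male pools of 310.4 and 147 normalized reads enclosed a female pool of 220.3. Its difference was 0.34 with standard error 0.40 (adjusted p = 1 in limma).

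Healthy female 2 and healthy male 1 hold no ascitic RNA and enter this comparison only through the shared estimate of spread. Without them the log2 differences of the members of rank 2, 15 and 16 stayed at 1.46, 2.24 and 1.53. That fit was chosen after seeing the data and leaves a single healthy pool of each sex. Its spread then rests on the ascitic pools, whose values entered the choice of the genes. Genes that passed in it are therefore not read as a result. For rank 16 the values were 191 and 173 normalized reads in ascitic females and 546 and 633 in ascitic males. With any 1 of the 8 pools left out, 0 members passed.

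The 2 genes with higher ascitic females were the members of rank 34 and 54, and their steps were small. The first held 60.2 and 49.4 normalized reads in ascitic females and 44.1 and 43.7 in ascitic males. The second held 47.9 and 54.6 in the females and 36.7 and 39.8 in the males. Their log2 differences were -0.20 and -0.26, with standard errors of 0.26 and 0.30 (adjusted p = 1 for both in limma). No member had an ascitic male mean of 0.5 times the female mean or less, while 12 had a male mean at least 2 times and 3 at least 4 times the female mean. The share of all genes beyond these limits was not counted, so these numbers have no background beside them.

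**Figure D4:**
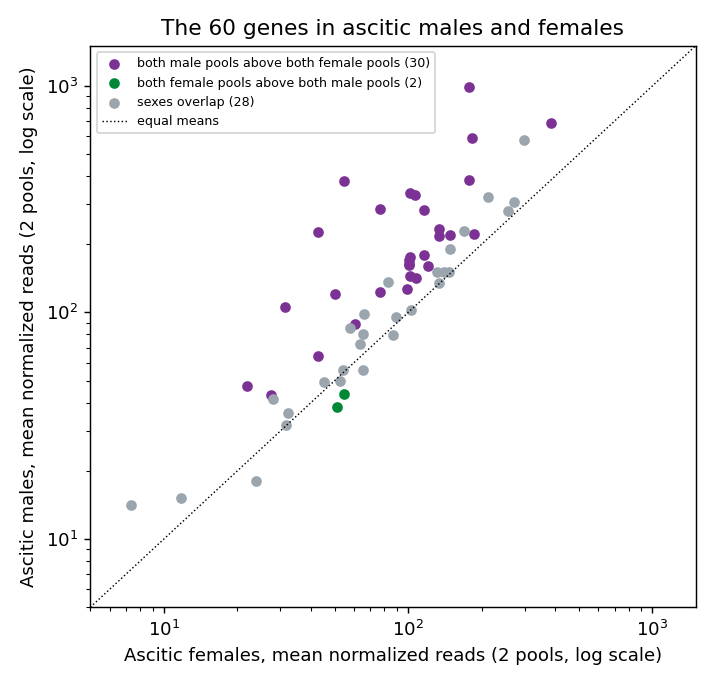
Mean normalized reads of the 60 genes in the 2 ascitic female pools (horizontal, log scale) and the 2 ascitic male pools (vertical, log scale), with the dotted line at equal means. Purple marks are the 30 genes whose male pools both lie above both female pools, green marks the 2 genes with the reverse, and gray marks the 28 genes that overlap; 53 of the 60 lie above the line.

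In healthy liver, both male pools lay above both female pools in 15 of the 60 genes and below them in 9, where the shares over the genes tested were 16.2% and 15.4%. Without healthy female 2 and healthy male 1 a single pool of each sex is left, so no such count was made. Over both disease states, limma's additive model passed 0 of the 59 genes for sex. At an unadjusted p under 0.05 in limma there were 9, all higher in males, where 3.81% of all genes were. Limma-voom passed 0, with 14 at an unadjusted p under 0.05, all higher in males, where 562 of the 13766 genes were. The share that passed over all genes was 0.0%. For the member of rank 16 the log2 difference was 0.95 with all pools and 1.38 without healthy female 2 and healthy male 1. It held 2.33 and 49.6 normalized reads in healthy females and 33.4 and 23.3 in healthy males. Leaving out healthy female 2 thus removed its highest healthy pool. That fit keeps a single healthy pool of each sex, so genes that passed in it are not read as a result.

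Whether the ascitic against healthy difference itself differed between the sexes was asked with an interaction term. It passed 0 of the 59 genes in limma, with 6 at an unadjusted p under 0.05, all larger in males, where 3.16% of all genes were. In limma-voom it passed 0, with 0 at an unadjusted p under 0.05, where 803 of the 13766 genes were. The share passing over all genes was 0.0%. The interaction was positive, that is, larger in males, in 44 of the 59 genes, against 52.7% of all genes tested. It was positive in 39 in limma-voom and in 35 on log2 of normalized reads plus 1, where 7132 and 7081 of the 13766 genes were. The rule capped the healthy values, so these counts in part restate the step between the ascitic sexes. At rank 20, with no healthy read, the step and the interaction are both 0.66 log2 units. The differences within males and within females, which rest on the values that chose the genes, had medians of 1.95 and 1.71 log2 units. The largest interaction was at rank 14, where ascitic males exceeded healthy males by 4.78 and ascitic females exceeded healthy females by 2.91 log2 units (interaction 1.86, unadjusted p = 0.0333 in limma). Without healthy female 1 the interaction passed the members of rank 2 (1.66 log2 units), 16 (2.02) and 30 (-1.33), a smaller share of the members than of all genes. This fit leaves healthy female 2 alone in its group, so the genes that passed in it are not read as a result.

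Which ascitic pool stood at either end restates the same 4 libraries, and the lowest of them is the value that the rule used. The highest ascitic pool was ascitic male 2 for 29 genes, ascitic male 1 for 23, and each ascitic female pool for 4. The lowest was ascitic female 1 for 28 genes, ascitic female 2 for 17, ascitic male 1 for 7 and ascitic male 2 for 8, so that a female pool set the gap for 45 of the 60 genes. Over the 13766 genes tested, the highest pool was ascitic male 2 for 25.6%, ascitic male 1 for 32.1%, ascitic female 1 for 22.1% and ascitic female 2 for 20.3%. The lowest was ascitic female 1 for 24.4%, ascitic female 2 for 21.3%, ascitic male 1 for 26.3% and ascitic male 2 for 28.0%.

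Evenness among ascitic pools varied widely from gene to gene. The highest ascitic pool was a median of 1.90 times the lowest, under 1.5 times in 12 genes and over 5 times in 7. At rank 30 the ascitic pools held 133, 135, 139.6 and 131 normalized reads, 1.07 times between highest and lowest, while the healthy pools ran from 4.14 in healthy female 2 to 47.6. At rank 49 they held 49.9, 40.8, 49.6 and 48.8. At the other end stood the member of rank 14, with a factor of 15.4. At rank 35 the pools differed widely within each sex and the sexes overlapped, with 469 and 129 normalized reads in ascitic females and 927 and 227 in ascitic males.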

How the data were processed

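Per the labels' protocols, RNA of 4 livers was combined into each pool, and libraries were made by poly(A) selection from RNA of integrity number over 7.5. In the submitters' processing notes stand HTSeq 0.6.1, TopHat2 2.0.9 and DESeq2 1.22.1, beside other tools and without their roles. Neither genome build nor annotation is given there. The deposited table, named as counts, holds log2 values of a variance-stabilizing form. Solved for reads, 100% of values in every pool came out as whole reads (tolerance 0.01 read), which also gave the size factors.

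The members and lists were chosen with earlier results of these data known. Gene lists and markers by symbol were not used, since no ID could be matched to a symbol (reference GRCg7b). Limma 3.58.1 (R 4.3.3, statmod 1.5.0; variance trend, robust) was run on the deposited log2 values of genes that reached 10 reads, scaled to the median library, in at least 2 pools, with a total of 15 or more, with Benjamini-Hochberg adjustment over 13766 genes. Fits were also run on simulated counts that held no ascites difference and no pool against its sex label. That run therefore does not vouch for the fits to these pools. IDs were limited to the 2 largest gaps. The labels do not say that pools come from separate flocks or days, so p-values measure only the spread between pools. Depth limits counting error only, and 3 reads in a pool are 0.0904 to 0.113 CPM.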

Additional observations from a re-analysis of the deposited data

Results flagged for a closer look

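Within healthy and within ascitic pools, Dixon's test (distance of the extreme pool to the next one, relative to the range) was applied to the mean and the summed reads of the 60 genes and to 26 genes: the first 10, the 5 with no healthy read, the 6 with the lowest p between ascitic sexes (which include ranks 2 and 9) and ranks 16, 17, 30, 34, 35, 49 and 54. Chance flags about 1 in 20 sets of like pools, a rate that does not apply here. Each set mixed both sexes, and some genes were picked for their values in the same pools. Of 56 sets, 5 had no range, and 8 held an extreme pool. In healthy pools these were ENSGALG00000026557 in healthy female 2, at 4.14 normalized reads from the same 2 reads as in the other pools, the member of rank 6 in healthy male 1, at 1.08 normalized reads from a single read, and the member of rank 54 in healthy male 2, at 10.6. In ascitic pools they were the member of rank 4 in ascitic female 1 (237 normalized reads, below the others), the member of rank 7 in ascitic male 1 (309, above the others), the members of rank 17 and 52 in ascitic male 2 (369 and 21.8, above the others) and the member of rank 49 in ascitic female 2 (40.8, below the others).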

How the results depend on the processing

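The choice of genes depended on single pools. With 1 pool left out, the rule chose between 41 (without ascitic female 1) and 57 (without ascitic male 2) of the 60 again. It chose 50 with total reads, 56 with trimmed means of M values, 42 on log2 of normalized reads plus 1, 42 and 51 with healthy limits of 6.0 and 7.0, and 36 when ranked by the difference of group medians. The median ascitic difference of 1.82 became 2.12 with total reads and 3.46 on log2 of normalized reads plus 1, and ran from 1.74 to 1.88 with 1 pool left out. The step between ascitic sexes in the mean level ran from 0.48 to 0.63 under other scalings and scales. No ascitic pool was left out for it, so its dependence on single ascitic pools was not tested. Members passing were 0 for sex, 0 for sex within ascitic pools and 0 for the interaction in all alternatives but 3: without healthy female 2 and healthy male 1 (chosen after seeing the data) they were 1 for sex and 3 within ascitic pools, and with 1 pool left out the interaction ran from 0 to 3 (3 without healthy female 1). The cause was not tested. ENSGALG00000000274 reversed its step between ascitic sexes without ascitic female 1 (-0.03) and without ascitic male 1 (-0.12), was 0.81 without ascitic male 2, and ENSGALG00000026557 ran from 1.42 to 1.72. Leaving out 1 pool leaves a lone pool in its group, which is assumed to vary like the others. The labels do not say that replicate numbers pair pools, and correlations of their deviations from group means lay between -0.42 and 0.32. With the replicate block 0 members passed each of the 3 tests.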

Other observations

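Of the 4218 scarce genes, 15 had no read in any ascitic pool.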
